A study of Mus musculus with 4 samples.

Results

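Translation initiation factors load the small ribosomal subunit with initiator tRNA, bring it to the capped mRNA and join it to the large subunit. Their genes carry symbols that start with Eif and a digit, and all such genes in the probe annotation were taken, each through its brightest probe set named for that gene alone. The annotation gave 47 Eif genes among 18193 genes with such a probe set, and 44 of them exceeded the signal floor on at least 1 array, against 9865 of all genes. The 3 genes under the floor on all 4 arrays were Eif2s3y, Eif4a3 and Eif5a2. A probe set that names Eif4a3 together with Gm5576 was not counted and had a mean log2 signal of 11.8. The 44 measured genes comprised 2 eIF2 subunits, 5 eIF2B subunits, 4 eIF2 kinases, 11 eIF3 subunits, 12 eIF4 genes and 10 further factors. Eif2s1 and Eif4g1 were not analysed here.

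The cells were bone marrow neutrophils, isolated with a magnetic bead kit from 8-week-old C57BL/6 mice of the genotype miR-125a-/- (knockout, without the microRNA miR-125a) or miR-125a+/+ (wild type). Each genotype was examined after 3 h with lipopolysaccharide (LPS), the Gram-negative cell wall component sensed by Toll-like receptor 4, and unstimulated. RNA of 3 experiments was pooled into 1 Affymetrix array for each of the 4 groups, so no difference has a replicate check and no test could be run. The labels name neither the construct behind the knockout allele nor the cells in which the microRNA is missing, and leave unsettled whether unstimulated cells were cultured for 3 h. Values are log2 signals. The floor is a log2 signal of 6.80, the 60th percentile of all values, and a gene was called higher or lower from a 2-fold difference (log2 of 1) between 2 arrays.

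As background, eIF2 with GTP carries the initiator tRNA, eIF2B recharges eIF2 with GTP, and 4 kinases named Eif2ak phosphorylate eIF2, which then blocks eIF2B and lowers general translation while a few mRNAs, such as that of the transcription factor Atf4, are translated more. This branch point is the integrated stress response. The eIF3 complex is the scaffold on the small subunit, and the eIF4 proteins bind the cap (Eif4e), unwind the leader (Eif4a) and bridge both ends of the mRNA (Eif4g). In neutrophils, which arrive with stored granule proteins and then make cytokines after LPS, transcript levels of these factors do not give translation rates.

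The labelled cell type was checked first. All 10 neutrophil markers with a probe set, among them S100a8, Ltf and Camp, exceeded the floor, and their summed log2 signal lay between 18.2 and 18.5 on the 4 arrays. Summed monocyte and macrophage markers (7 of 7 above the floor) stood at 15.6 after LPS in both genotypes, against 14.8 in both unstimulated. Their members moved in both directions, with 3 higher and 2 lower in each genotype: Adgre1 had 5.16 in knockout and 4.94 in wild-type cells, Vcam1 2.96 and 3.13 and Csf1r 2.36 and 2.64, whereas Ccr2 had -3.54 and -3.88 and F13a1 -1.79 and -1.93. Erythroid markers (4 of 7 above the floor, Hba-a1 and Alas2 not) summed to 10.2 after LPS and 11.8 unstimulated in knockout cells, and to 10.2 and 11.1 in wild-type cells. Eosinophil, basophil and mast cell markers (4 of 5) summed to 10.5 in knockout and 11.7 in wild-type cells after LPS, and to 10.7 and 11.9 unstimulated. Of B cell markers 1 of 3, and of T and NK cell markers 1 of 4, exceeded the floor. The part of these cells in the values below was not tested, and in pooled RNA fewer cells of a type and less RNA per cell cannot be told apart. The signal of the 3' over the 5' actin probe set, a measure of RNA integrity, was 0.18 (knockout, LPS), 0.23 (knockout, unstimulated), 0.16 (wild type, LPS) and 0.23 (wild type, unstimulated) on the log2 scale.

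Sequences upstream of the start site are shown for the 2 eIF2 kinase genes that differed from their unstimulated level in opposite directions, Eif2ak2 and Eif2ak3, and for Eif3a and Eif5b, which were lower after LPS in both genotypes. They are the 250 bases before the RefSeq start site in GRCm38.p6, read 5' to 3' on the gene's strand, and capitals mark matches to the motifs searched.
Eif2ak2 (chr17:78882573-78882822, minus strand): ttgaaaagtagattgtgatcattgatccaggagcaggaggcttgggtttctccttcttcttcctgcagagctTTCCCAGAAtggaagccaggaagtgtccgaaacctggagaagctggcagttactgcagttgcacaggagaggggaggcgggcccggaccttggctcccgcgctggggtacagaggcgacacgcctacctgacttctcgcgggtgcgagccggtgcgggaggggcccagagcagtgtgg
Eif2ak3 (chr6:70844265-70844514, plus strand): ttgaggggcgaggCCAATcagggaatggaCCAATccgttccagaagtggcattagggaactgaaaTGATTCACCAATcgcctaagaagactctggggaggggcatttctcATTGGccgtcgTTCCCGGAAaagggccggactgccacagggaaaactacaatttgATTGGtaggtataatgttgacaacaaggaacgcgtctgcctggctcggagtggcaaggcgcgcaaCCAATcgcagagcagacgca
Eif3a (chr19:60790694-60790943, minus strand): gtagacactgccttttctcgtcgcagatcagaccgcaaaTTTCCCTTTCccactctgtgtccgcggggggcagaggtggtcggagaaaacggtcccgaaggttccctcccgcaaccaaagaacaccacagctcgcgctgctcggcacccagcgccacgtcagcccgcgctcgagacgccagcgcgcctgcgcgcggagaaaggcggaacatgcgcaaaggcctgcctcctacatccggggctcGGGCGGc
Eif5b (chr1:37997760-37998009, plus strand): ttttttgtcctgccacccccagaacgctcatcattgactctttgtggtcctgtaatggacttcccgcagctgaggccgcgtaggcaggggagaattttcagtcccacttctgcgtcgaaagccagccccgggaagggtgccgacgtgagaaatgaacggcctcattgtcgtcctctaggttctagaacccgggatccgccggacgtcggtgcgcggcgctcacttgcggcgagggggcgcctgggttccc

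Both strands were searched for 10 motifs. Of interferon signalling these were the core of the interferon-stimulated response element (GAAA, any 2 bases and the same 4 letters again) and the gamma-activated site, written TTCNNNGAA. For factors activated by growth signals and stress, the AP-1 motif TGANTCA, the cAMP response element TGACGTCA and the amino acid response element TGATGCAA were used. The E-box is CACGTG, a motif of Myc and related factors. The motif of ETS factors, which include PU.1 of myeloid cells, was searched as CCGGAAG. The general promoter elements were the box named for its letters CCAAT, the TATA box as TATAAA, and the GC box of Sp1-like factors as GGGCGG. The capitals in Eif2ak2 are 1 TTCNNNGAA, in Eif2ak3 6 CCAAT, 1 TTCNNNGAA and 1 TGANTCA, which directly abuts a CCAAT, and in Eif3a 1 interferon element core, on the opposite strand, and 1 GGGCGG. The Eif5b window held none of the 10 motifs. TTCNNNGAA occurs in 6.58% and the interferon element core in 2.96% of 21263 windows of protein-coding genes. Windows were found for 35 of the 44 genes (48 windows, as some genes have several start sites). Of these 48 windows 64.6% held GGGCGG, against 42.6% of protein-coding windows, 18.8% held CACGTG, against 6.63%, and 20.8% held CCGGAAG, against 8.98%. The E-box windows belonged to 7 genes, Eif1b, Eif3f, Eif3k, Eif4a1, Eif4e, Eif4h and Eif5a. None of these 7 was called in any comparison below. Most of the 44 genes were not called either, 36 after LPS in knockout and 40 in wild-type cells, so this does not set the 7 apart. CCAAT was found in 25.0% and TATAAA in 4.17%, against 35.4% and 11.6%. Several windows of a gene were counted separately, and the protein-coding windows also cover genes under the floor. Whether these shares differ from those of other measured genes was not tested. These matches are letters in a window, not sites of binding.

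The first comparisons ask how LPS changed the transcripts of the initiation machinery in each genotype. Most of the machinery stayed within 2-fold, and the genes that did not were mostly lower. In knockout cells 7 of 44 genes (15.9%) were lower and 1 (2.27%) was higher, against a background of 7.99% lower and 6.62% higher among 9578 measured genes. In wild-type cells 4 of 44 (9.09%) were lower and 0 higher, against 9.69% lower and 7.29% higher among 9507 genes, so that this share lay near the background. The lower share in knockout cells depended on the scaling, as given in the next paragraph. Lower in both genotypes were Eif4e3, Eif1a, Eif5b and Eif3a. Lower by 2-fold in knockout cells were also Eif2b1, Eif2b3 and Eif2ak3, which stood at -0.95, -0.92 and -0.82 in wild-type cells, just short of the rule. The gene higher in knockout cells was Eif2ak2.

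The median log2 difference of the 44 genes was 0.06 in knockout and 0.11 in wild-type cells, against -0.05 and -0.03 over all measured genes, and 34 and 28 of the 44 lay within 0.5 of 0. Scaling by the poly-A controls spiked into each RNA shifted the median of all genes by -0.56 in knockout and -0.52 in wild-type cells, and the medians of the 44 genes to -0.55 and -0.46. On that scale 314 of all genes were higher and 2571 lower in knockout cells, against 634 and 765 on the deposited scale, and 337 and 2401 in wild-type cells, against 693 and 921. Many of the small positive differences given below therefore fall to or below 0 on the poly-A scale. Median centring of the arrays shifted all genes by 0.11 and 0.13, and 856 genes were then higher and 730 lower in wild-type cells (835 and 707 under quantile normalization). Of the 44 genes in knockout cells, 9 were lower on the poly-A scale, beside 2571 of 9805 of all genes. Under median centring 4 were lower, beside 623 of 9567. The lower share of the 44 genes in knockout cells thus exceeded that of all genes on the deposited scale, but not on the poly-A scale.

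**Figure D1:**
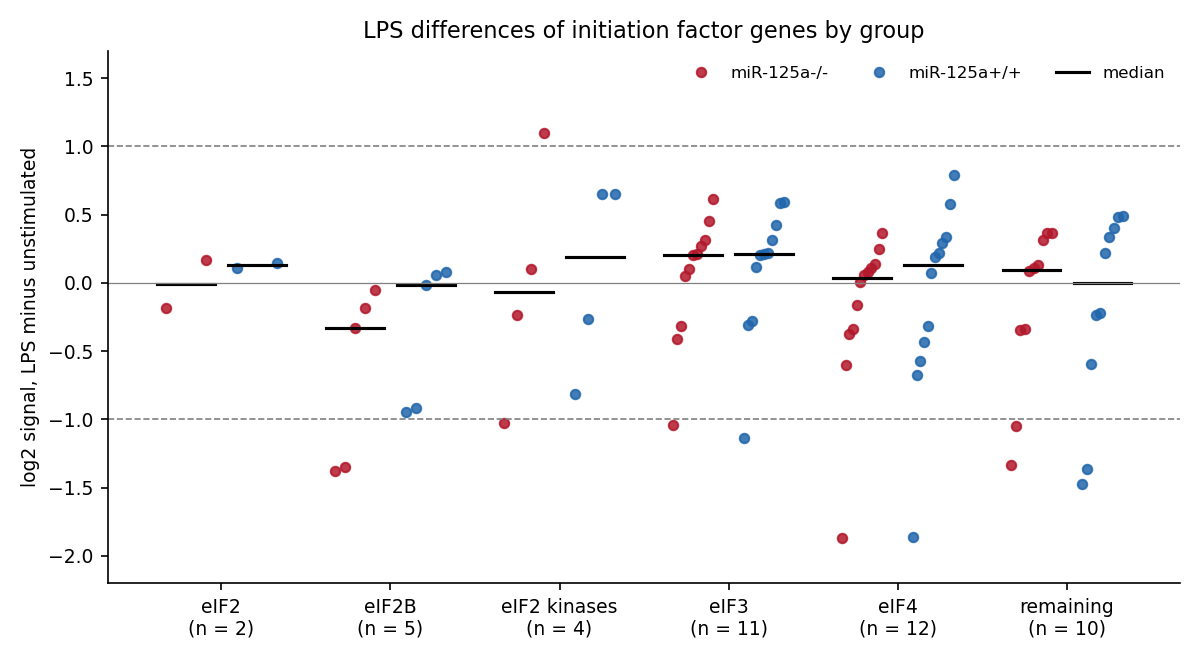
Each point is the log2 difference of 1 gene, LPS minus unstimulated (vertical axis), in miR-125a-/- cells (red) and miR-125a+/+ cells (blue), by factor group with the number of genes, and black bars are group medians. Dashed lines mark 2-fold. Most points lie between the dashed lines, with Eif4e3 lowest at -1.87 and -1.86.

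The eIF2 kinases differed from each other. Eif2ak2 encodes PKR, the kinase activated by double-stranded RNA and a known interferon-stimulated gene. Its log2 signal was 9.86 after LPS and 8.76 unstimulated in knockout cells, a 2.14-fold difference. In wild-type cells it was 9.53 after LPS and 8.88 unstimulated, a log2 difference of 0.65. Both LPS arrays lay above both unstimulated arrays. Its other 2 probe sets ran the same way, with the 3 probe sets spanning 0.81 to 1.27 in knockout and 0.59 to 0.65 in wild-type cells. On the poly-A scale the difference in knockout cells was 0.49 and the call ended.

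Eif2ak3 encodes PERK, the kinase of endoplasmic reticulum stress. It had 9.78 after LPS and 10.80 unstimulated in knockout cells (difference -1.03), and 9.72 and 10.54 in wild-type cells (-0.82). Both LPS arrays were below both unstimulated ones in this probe set. A dimmer probe set, which can cross-hybridise by its name, gave -0.31 in knockout and 0.43 in wild-type cells. The call in knockout cells ended under quantile normalization, under median centring and in the mean over probe sets.

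Eif2ak1 encodes HRI, the haem-regulated kinase best known from red cell precursors. It had 8.68 after LPS and 8.58 unstimulated in knockout cells, and 8.88 and 8.23 in wild-type cells. The 4 probe sets of this gene disagreed, from -1.11 to 0.63 in knockout and from -1.21 to 0.65 in wild-type cells, so no direction can be given. The erythroid marker Car2 stood at 9.71 after LPS and 11.19 unstimulated in knockout cells, and at 9.90 and 10.48 in wild-type cells; whether red cell precursors contribute to the Eif2ak1 signal was not tested.

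Eif2ak4 encodes GCN2, the kinase that senses uncharged tRNA in amino acid shortage. It was near the floor unstimulated, at 7.03 in knockout and 7.06 in wild-type cells. After LPS it was below the floor, with measured values of 5.70 in knockout and 6.17 in wild-type cells. The bounds on its differences, -0.23 and -0.26, fell short of 2-fold. With the floor at the 50th percentile or none it was called lower in knockout cells.

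**Figure D2:**
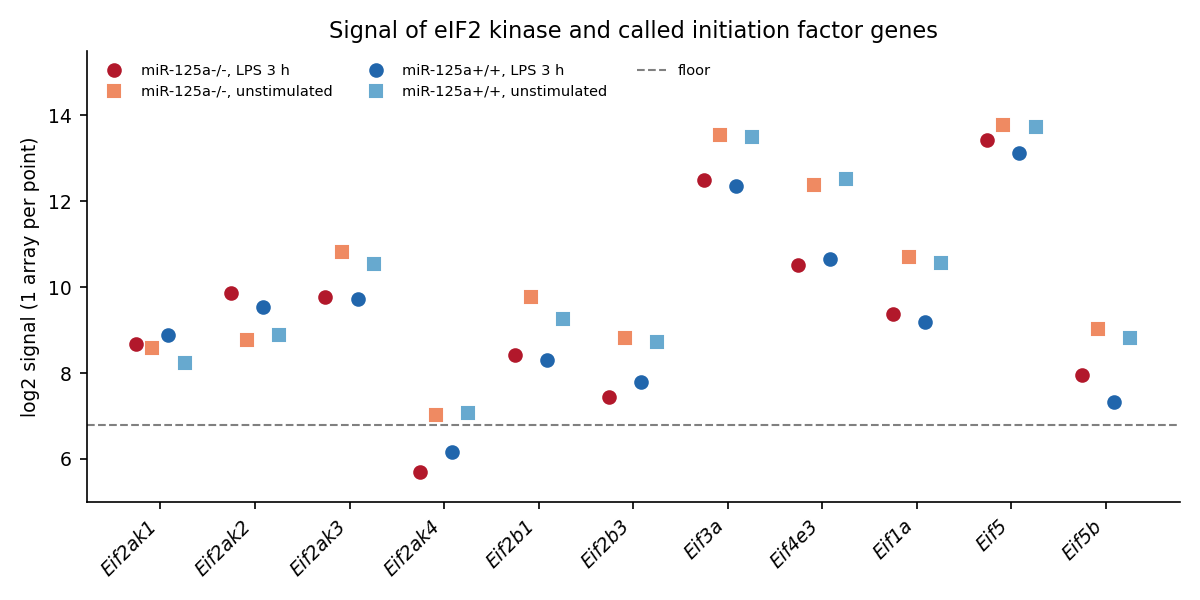
Log2 signal on each of the 4 arrays (1 array per point, circles after LPS, squares unstimulated, red and orange miR-125a-/-, blue miR-125a+/+) for the 4 eIF2 kinase genes, the other genes called lower and Eif5, and the dashed line is the floor of 6.80. Arrays can be compared within a gene and not between genes. Circles lie above squares in Eif2ak2 and in Eif2ak1, whose other probe sets disagree. They lie below squares in Eif4e3, Eif1a, Eif5b, Eif3a, Eif2b1, Eif2b3, Eif2ak3, Eif2ak4 and Eif5.

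The substrate of these kinases was represented by 2 subunits. Eif2s2, the beta subunit, had differences of 0.17 in knockout and 0.11 in wild-type cells, and Eif2s3x, the X-linked gamma subunit that binds GTP, -0.18 and 0.15. Neither was called in any comparison.

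In eIF2B, the exchange factor that phosphorylated eIF2 blocks, the subunits split. Eif2b1, the alpha subunit of the regulatory part, had 8.42 after LPS and 9.77 unstimulated in knockout cells, which is 2.54-fold lower. In wild-type cells it had 8.31 and 9.25, a difference of -0.95. Eif2b3, the gamma subunit of the catalytic part, had 7.43 and 8.81 in knockout cells, 2.60-fold lower, and 7.80 and 8.71 in wild-type cells, a difference of -0.92. For both genes the LPS arrays of each genotype lay below both unstimulated arrays. Eif2b2, Eif2b4 and Eif2b5 ranged from -0.33 to -0.05 in knockout and from -0.02 to 0.08 in wild-type cells. All 5 differences were below 0 in knockout cells (median -0.33), against 3 of 5 in wild-type cells (median -0.02). The sign of Eif2b2 depended on the probe set. Its 3 probe sets ran from -0.33 to 0.13 in knockout and from -0.37 to 0.54 in wild-type cells. Eif2b1 and Eif2b3 have 1 probe set each, so no other probe set bears on them, and with the floor at the 75th percentile the call of Eif2b3 ended.

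In the eIF3 complex only its largest subunit was called. Eif3a, the scaffold subunit, had 12.50 after LPS and 13.54 unstimulated in knockout cells, 2.06-fold lower. In wild-type cells it had 12.35 and 13.49, 2.20-fold lower. All 4 of its probe sets were below 0 in both genotypes, from -1.17 to -0.61 in knockout and from -1.38 to -0.79 in wild-type cells. Both calls are close to the rule and ended under median centring (-0.93 in knockout and -0.99 in wild-type cells), and that in knockout cells also in the mean over probe sets.

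Eif3c, which pairs with Eif3a in the core of the complex, lay on the other side, with 13.57 after LPS and 12.95 unstimulated in knockout cells and 13.42 and 12.83 in wild-type cells. Its differences were 0.61 and 0.59, and its 4 probe sets spanned 0.23 to 0.91 in knockout and 0.59 to 1.15 in wild-type cells. Eif3h, another subunit, had 13.23 and 12.78 in knockout and 13.28 and 12.70 in wild-type cells. Over the 11 subunits 8 were above 0 in each genotype, with medians of 0.20 in knockout and 0.21 in wild-type cells that turned to -0.40 and -0.36 on the poly-A scale. Eif3b and Eif3m joined Eif3a below 0, at -0.41 and -0.31 in knockout and -0.28 and -0.31 in wild-type cells. Eif3d, Eif3e, Eif3f, Eif3i, Eif3k and Eif3l lay between 0.05 and 0.31 in knockout and between 0.12 and 0.42 in wild-type cells.

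Among cap-binding genes the largest difference of the whole machinery was found. Eif4e3, a cap-binding relative of Eif4e, had 10.52 after LPS and 12.38 unstimulated in knockout cells, 3.65-fold lower. In wild-type cells it had 10.65 and 12.51, 3.63-fold lower. The 4 values form a high unstimulated pair and a low LPS pair with little spread between genotypes. Its rank from the lowest was 93 of 9578 genes in knockout and 159 of 9507 in wild-type cells. A further probe set gave -1.79 in knockout and -1.94 in wild-type cells, and the call held under all 8 alternative settings in both genotypes, between -2.47 and -1.72.

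Eif4e itself, the main cap-binding protein, had 11.16 after LPS and 11.76 unstimulated in knockout cells and 11.25 and 11.68 in wild-type cells, differences of -0.60 and -0.43. A further probe set of Eif4e gave -0.82 and -0.45, but the dimmest measured gave 0.25 in knockout and -0.97 in wild-type cells. Eif4e2, a cap-binding protein that represses translation, had 0.08 and 0.58. Of the 3 cap-binding genes, Eif4e3 alone was called.

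Eif4ebp1, which sequesters Eif4e until mTOR phosphorylates it, had 12.52 after LPS and 12.68 unstimulated in knockout cells and 12.54 and 12.86 in wild-type cells. Eif4ebp2, of the same function, had 11.36 and 11.26 in knockout cells and 12.16 and 11.37 in wild-type cells. The wild-type LPS array stood above the other 3 in Eif4ebp2. Of its other 2 measured probe sets, 1 also had that array highest (0.01 in knockout and 0.37 in wild-type cells), and the other ran the opposite way in wild-type cells (0.13 and -0.43). Eif4enif1, which carries Eif4e into the nucleus, had 0.14 and 0.29.

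Of the helicase genes, Eif4a1 had 14.28 after LPS and 14.22 unstimulated in knockout cells, and 14.04 and 13.85 in wild-type cells. Its relative Eif4a2 had -0.34 in knockout and -0.57 in wild-type cells. The helicase cofactors Eif4b and Eif4h had 0.00 and 0.25 in knockout and 0.22 and 0.34 in wild-type cells. Of the scaffolds, Eif4g2, which lacks the Eif4e-binding part and serves cap-independent initiation, had 15.26 and 14.89 in knockout and 14.93 and 14.86 in wild-type cells, and Eif4g3 had differences of -0.38 and -0.67. None of these was called. The median of the 12 eIF4 genes was 0.03 in knockout and 0.13 in wild-type cells, and -0.58 and -0.44 on the poly-A scale.

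Factors of scanning and subunit joining held the other calls. Eif1a, an eIF1A gene that helps the small subunit scan to the start codon, had 9.37 after LPS and 10.71 unstimulated in knockout cells, 2.53-fold lower. In wild-type cells it had 9.19 and 10.56, 2.58-fold lower. Both of its probe sets can bind several transcripts by their names, and a further probe set names Eif1a together with Gm4027 and BB287469, so signal of close copies cannot be told apart. Its X-linked relative Eif1ax had 12.72 and 12.35 in knockout and 12.73 and 12.25 in wild-type cells, with both LPS arrays above both unstimulated ones, but a dimmer probe set gave -0.19 and -0.73.

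Eif5b, the GTPase that joins the ribosomal subunits, had 7.96 after LPS and 9.01 unstimulated in knockout cells, 2.07-fold lower. In wild-type cells it had 7.34 and 8.81, 2.78-fold lower. The dimmer of its 2 measured probe sets gave -1.14 in knockout and -0.86 in wild-type cells. With the floor at the 75th percentile the calls in both genotypes ended, and that in knockout cells also under quantile normalization and median centring.

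Eif5, which makes eIF2 hydrolyse its GTP at the start codon, had 13.43 after LPS and 13.77 unstimulated in knockout cells and 13.12 and 13.72 in wild-type cells. These differences of -0.34 and -0.60 were not called. All 5 probe sets of Eif5 were below 0 in both genotypes, from -1.46 to -0.33 in knockout and from -2.30 to -0.51 in wild-type cells, and 2 of the 5 passed 2-fold in each. Its call thus depends on the probe set, and the mean over probe sets called it lower in wild-type cells.

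The remaining factors lay closer to 0. Eif6, which keeps the large subunit from joining too early, had 0.36 in knockout and 0.49 in wild-type cells, and Eif5a, a factor that helps ribosomes through difficult stretches, 0.08 and 0.34. Dimmer probe sets gave -0.37 in knockout and -0.19 in wild-type cells for Eif6, and -0.20 and 0.20 for Eif5a. Eif2d, which can deliver tRNA without eIF2, had 0.31 and 0.40, and Eif2a, which encodes another tRNA-binding factor, 0.11 and -0.24. Eif1b and Eif1ad had 0.13 and -0.34 in knockout and 0.22 and -0.22 in wild-type cells. For Eif1ad a dimmer probe set gave 0.07 in knockout and 0.31 in wild-type cells.

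**Figure D3:**
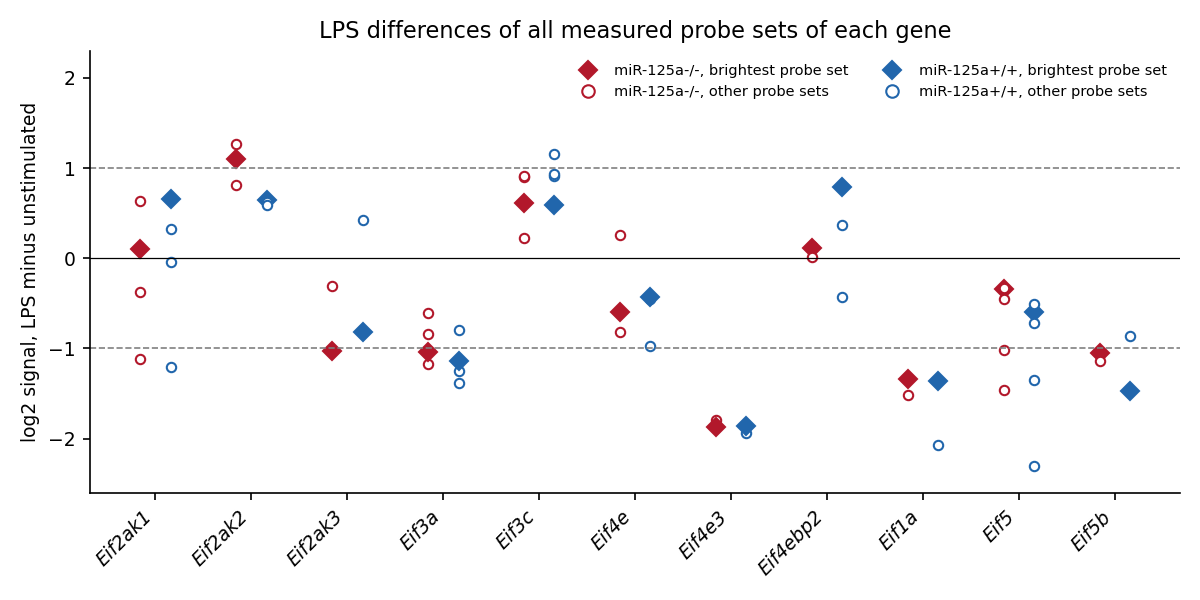
Log2 difference, LPS minus unstimulated, for every probe set above the floor of 11 genes, in miR-125a-/- (red) and miR-125a+/+ cells (blue), filled diamonds being the brightest probe set that represents the gene and open circles the others. The probe sets of Eif4e3 lie close together, and those of Eif3a lie below 0 but on both sides of the 2-fold line. Those of Eif2ak1 lie on both sides of 0, and those of Eif5 reach -2.30 in miR-125a+/+ cells.

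Probe sets of a gene often disagreed where differences were small. Of 29 genes with at least 2 measured probe sets in knockout cells 13 had all of them on 1 side of 0, and of 31 in wild-type cells 14 did. The median SD between probe sets of a gene was 0.24 in knockout and 0.38 in wild-type cells. Differences of that size are within the spread between probe sets.

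Other genes of the pathway were counted from lists. Among all measured genes 6.62% were higher and 7.99% lower after LPS in knockout cells, and 7.29% and 9.69% in wild-type cells. Of 22 measured genes of eIF2 dephosphorylation and the integrated stress response, 6 (27.3%) were higher and 1 (4.55%) lower after LPS in each genotype, with medians of 0.25 in knockout and 0.38 in wild-type cells. The 6 were Slc7a11, the cystine transporter (5.09 and 6.18), Atf5, a transcription factor of the response (2.94 and 2.90), Phgdh, of serine synthesis (2.06 and 2.33), Aars, an alanyl-tRNA synthetase (1.90 and 1.90), Trib3, a pseudokinase (1.89 and 2.27) and Asns, asparagine synthetase (1.47 and 1.42). Atf4 itself had -0.08 and 0.25, and Ddit3, another factor of the response, -0.34 and -0.07. Chac1, a glutathione-degrading enzyme of the response, had -0.02 and 0.43. The eIF2 phosphatase subunit Ppp1r15a had -0.74 and -0.55 and its relative Ppp1r15b -0.03 and 0.08. The gene that was lower was Impact, which restrains the kinase GCN2, with 8.35 after LPS and 9.48 unstimulated in knockout cells and 7.93 and 9.53 in wild-type cells. Psat1, of serine synthesis like Phgdh, had 0.10 and 0.33 and was not called. The difference between responses passed 2-fold in Slc7a11 alone of the 22 genes (-1.09), against 0.650% of all genes lower. Its signals after LPS were 13.01 in knockout and 13.21 in wild-type cells. Unstimulated they were 7.92 in knockout and 7.02 in wild-type cells, the latter near the floor of 6.80, where signals scatter.

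Among mTOR, MNK and cap-complex regulators, 1 of 19 measured genes was higher and 1 lower in knockout cells (median -0.03), and 1 of 20 and 1 of 20 in wild-type cells (median 0.11). These shares (5.26% each way in knockout cells) lay near or below those of all genes (6.62% higher and 7.99% lower in knockout, 7.29% and 9.69% in wild-type cells). Ddit4, an inhibitor of mTOR, had 1.52 in knockout and 1.77 in wild-type cells. Pdcd4, which blocks the helicase Eif4a, had 9.17 after LPS and 10.32 unstimulated in knockout cells, 2.22-fold lower, and 8.92 and 10.64 in wild-type cells, 3.31-fold lower. The kinases of Eif4e, Mknk1 and Mknk2, had -0.65 and -0.10 in knockout and -0.25 and 0.43 in wild-type cells. Mlst8, a subunit of the mTOR complexes, had 8.50 after LPS and 9.48 unstimulated in knockout cells and 9.51 and 9.37 in wild-type cells. It was the only gene of this list called between genotypes, after LPS (-1.01), 1 of 19 measured, against 0.626% of all genes lower. Its difference between responses was -1.11, lower in 1 of 18 measured, against 0.650% of all genes. Both values lie close to the rule and rest on 1 array a group, so an effect of genotype on Mlst8 was not tested.

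Elongation, release and recycling factors had 0 of 15 higher in both genotypes, 2 (13.3%) lower in knockout cells (median -0.15) and 1 (6.67%) lower in wild-type cells (median 0.05). Of all genes 7.99% were lower in knockout and 9.69% in wild-type cells, so in a list of 15 these counts lay near the background. Abce1, which splits ribosomes after termination, had -1.14 and -1.07, and Pelo, which rescues stalled ribosomes, -1.25 and -0.64. Elongation factors Eef1a1 and Eef2 had 0.33 and 0.28 in knockout and 0.22 and 0.59 in wild-type cells.

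Interferon-stimulated genes were listed beside Eif2ak2. Of 8 measured, 7 were higher in knockout cells (median 1.69) and 6 in wild-type cells (median 1.54), against 6.62% and 7.29% of all genes. On the poly-A scale 4 were higher in each, against 314 of 9805 genes in knockout and 337 of 9584 in wild-type cells. Mx1 was below the floor unstimulated, so its differences of 2.38 in knockout and 1.97 in wild-type cells, which enter these medians, are bounds. Rsad2, an antiviral enzyme, had 3.65 and 3.01, Irf9, an interferon signalling factor, 2.23 and 2.12, and Adar, an RNA editor of double-stranded RNA, 1.12 and 1.03. The difference of Eif2ak2, 1.10 and 0.65, was below the median of this list in each genotype.

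The difference between the genotypes was examined next. Unstimulated, 0 of 44 genes were called, against a background of 0.351% higher and 0.660% lower among 9401 genes. The knockout minus wild-type differences ran from -0.19 for Eif4g3 to 0.51 for Eif2b1, with 43 of 44 within 0.5 of 0. Of the 44, 32 were above 0 (median 0.08), against 50.9% of all genes (median 0.00). The next highest after Eif2b1 were Eif4a1, with 14.22 in knockout and 13.85 in wild-type cells, and Eif2ak1, with 8.58 and 8.23.

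After LPS, 0 of 43 genes were called, against 0.615% higher and 0.626% lower among 9262 genes. The lowest difference was that of Eif4ebp2 (-0.80), with 11.36 in knockout and 12.16 in wild-type cells, and its other probe sets gave 0.13 and -0.12. The highest was that of Eif5b (0.62), with 7.96 in knockout and 7.34 in wild-type cells, and its other probe set gave -0.11. Neither difference was thus repeated by a further probe set. The other 41 genes lay within 0.5 of 0, and the median was -0.02. Eif2ak2 differed by 0.32 after LPS and by -0.13 unstimulated.

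**Figure D4:**
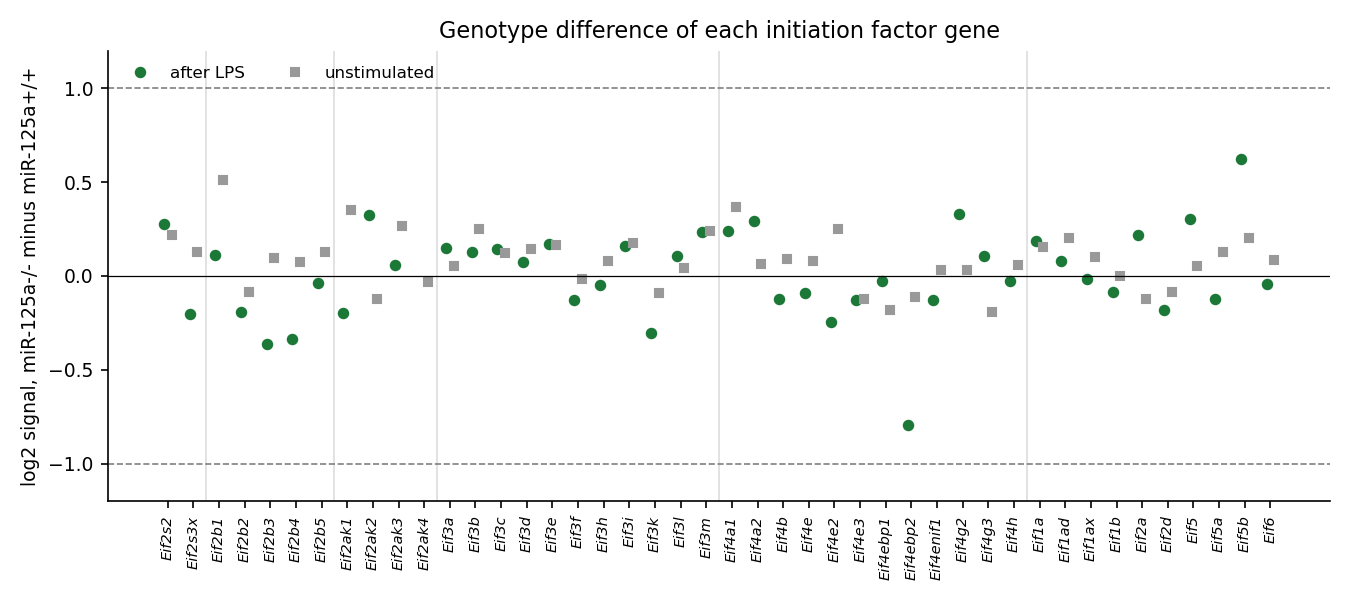
Log2 difference, miR-125a-/- minus miR-125a+/+, of each initiation factor gene after LPS (green circles) and unstimulated (grey squares), ordered by factor group with light vertical lines between groups and dashed lines at 2-fold. No point reaches a dashed line; Eif4ebp2 after LPS (-0.80) and Eif5b after LPS (0.62) lie farthest from 0.

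The LPS differences of the 2 genotypes were then set against each other. They share no array. Across the 44 genes Pearson's r was 0.917 and Spearman's rho 0.859, against 0.894 and 0.836 across 8156 genes above the floor on all arrays; genes on the same 4 arrays are not independent replicates. Their SD was 0.60 in knockout and 0.62 in wild-type cells, against 0.76 and 0.82. For the difference between responses (knockout minus wild type), 0 of 43 genes above the floor on all arrays reached 2-fold, against 1.01% higher and 0.650% lower among 8156 genes. The values ran from -0.68 for Eif4ebp2 to 0.45 for Eif2ak2. A dimmer probe set of Eif4e, which did not stand for its gene, gave 1.23. In eIF2B all 5 were below 0, from -0.46 to -0.11, though other probe sets of Eif2b2 gave 0.04 and -0.41. In eIF3 all 11 lay between -0.21 and 0.10. The median over the 43 genes was -0.11, against -0.02 over all genes.

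**Figure D5:**
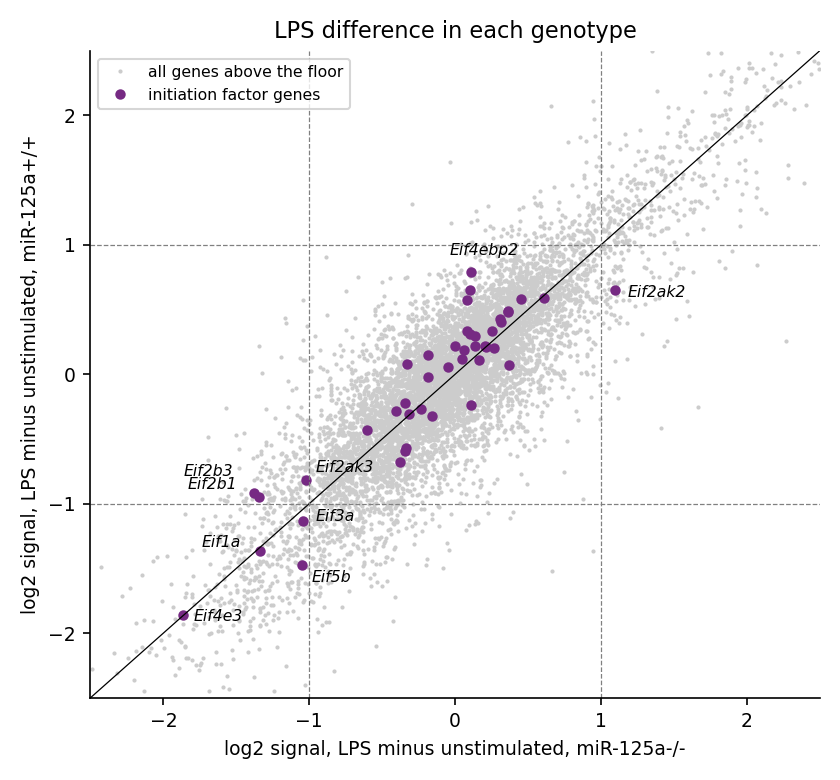
LPS minus unstimulated log2 difference in miR-125a-/- cells (horizontal) against miR-125a+/+ cells (vertical) for the 44 initiation factor genes (purple) and all genes above the floor on all arrays (grey; those beyond 2.5 log2 units are outside the frame). The solid line marks equal differences and dashed lines 2-fold; Eif4e3 lies on the line at -1.87 and -1.86, Eif2ak2 to the right of it and Eif4ebp2 above it.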

How the data were processed

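The submitters' processing notes name MAS5, without a version, and the authors deposited 1 log2 signal per probe set and array. Back on the linear scale, these signals average 500.003 or 500.004 on each array once 2% are trimmed from either end, so a shift shared by most genes would not show. MAS5 subtracts background on single arrays, so dim probe sets scatter widely. Depth does not apply to arrays, and their number limits the precision.

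Of 45101 probe sets, 932 with several symbols and 9211 not listed in the platform annotation were left out. The probe set with the highest mean over 4 arrays stood for its gene. Values under the floor (60th percentile, signal 111) were set to it, and a comparison used the genes that exceeded it on 1 or both arrays. Where 1 array was at the floor, the difference is a bound. Calls were made from 2-fold, without p-values, since each group holds 1 array. Genes given on every array were those called, the 5 highest and 5 lowest LPS differences, the kinases and a fixed set of core factors; further genes are values in passing. Members, lists, motifs and named genes were chosen with earlier results of these data known. The caller was run on simulated arrays without noise, which checks its arithmetic and tells nothing of the error of single arrays. Python 3.11.15, pandas 2.3.3 and numpy 2.4.6 were used. Alternatives were 3 floors, 3 scalings and 2 probe set rules.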

Additional observations from a re-analysis of the deposited data

Results flagged for a closer look

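Of the genes above the floor on all arrays, 4 had LPS differences of opposite sign in the 2 genotypes, each with 1 array a group, so the difference was not tested. The knockout minus wild-type response was 0.34 for Eif2a, -0.11 for Eif2b2, -0.41 for Eif2b4 and -0.33 for Eif2s3x, none of which reached 2-fold. Other probe sets of Eif2b2 and Eif2s3x each had the same sign in both genotypes. The other measured probe set of Eif2a repeated the opposite signs, with 0.02 in knockout and -0.79 in wild-type cells. Eif2b4 has 1 probe set.

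Probe sets that name an initiation factor together with another gene were left out of the counts, and 5 of them had signal above the floor. The 3 that name Eif3j2 and Eif3j1, encoding an eIF3-associated subunit, had mean log2 signals of 10.4, 8.96 and 11.6. Their LPS differences were -0.70, -1.77 and -0.70 in knockout cells and -0.46, -1.57 and -0.49 in wild-type cells, all below 0. The probe set naming Gm5576 and Eif4a3, the helicase of the exon junction complex, had a mean of 11.8 and differences of -0.30 and -0.04. The probe set naming Ankhd1 and Eif4ebp3 had a mean of 9.74 and differences of 0.00 in both genotypes.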

How the results depend on the processing

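No paired analysis was possible because each group holds 1 array. The 8 alternatives were floors at the 50th and 75th percentile or none, quantile normalization, median centring, poly-A spike-in scaling, the mean over probe sets, and leaving out probe sets that can bind several transcripts. With no replicates, a difference or median counted as moved when it changed by more than the median SD between probe sets of a gene, and a count when it changed by more than 1.5 times. Of 120 counts and medians over all the genes 114 stayed within that and 6 moved. Under median centring 4 of 44 genes were lower in knockout cells, where 623 of 9567 genes were lower. On the poly-A scale 0 of 44 genes were higher in knockout cells, where 314 of 9805 genes were higher. In wild-type cells 11 of 44 were lower on that scale, where 2401 of 9584 genes were lower, a like share. The medians on that scale were -0.55 in knockout and -0.46 in wild-type cells. Without probe sets of several transcripts 1 of 34 genes, Eif3c, was higher in wild-type cells after LPS, where 577 of 8095 genes were higher. Of 726 values of single genes 649 stayed and 77 moved, and no called gene changed sign. Both genotype comparisons and the difference between responses had 0 calls under all 8 alternatives.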
